A study of Mus musculus with 130 samples.

Results

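The comparison set cells of the G1-S gate against cells of the G1 gate in mouse embryos of E13.5. Its members were the 4 libraries of these gates in preparations 5 and 8, chosen by the gate and preparation in the labels and paired by preparation, out of 25 libraries in the series. All embryos were wild-type FVB/NJ mice that carry FUCCI, a pair of fluorescent reporters of cell cycle phase, and the labels name no treatment. Embryos were minced and flow-sorted, and the labels assign the colour classes BR, DR, YE and GR to the phases G0, G1, G1-S and S-G2-M, beside unsorted cells (US). The G1-S libraries were YE and the G1 libraries were DR, with n = 2 preparations a side. The other libraries of preparations 5 and 8 entered the fit for the spread, and preparations WT1 and WT2 of E10.5 and WT3 of E11.5 were used for the comparison with earlier days. The labels give neither the number of embryos behind a preparation nor the promoter that drives the reporters.

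In FUCCI the red reporter is built on a fragment of CDT1, a licensing factor that is degraded once S phase begins, and the green reporter on a fragment of geminin, which is degraded from late mitosis through G1. Cells that hold both colours appear yellow and pass from G1 into S phase. E2F transcription factors, which the series title names, are known to raise the genes of origin licensing, nucleotide supply and DNA synthesis at that transition, whereas the B-Myb, FOXM1 and MuvB proteins act on mitotic genes later in the cycle. Because the reporters respond to protein degradation, the mRNA levels of Cdt1 and Gmnn do not show the colour of a gate.

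Each of the 4 libraries held 18.2 to 21.4 M counts (M for mega), and the 10 libraries of E13.5 held 14.7 to 29.2 M. Mitochondrially encoded genes took 1.96% and 1.77% of the counts in the G1 libraries of preparations 5 and 8, and 3.42% and 2.32% in the G1-S libraries. The predicted genes Gm26917 and Gm42418, which hold ribosomal RNA repeats, took 3.05% and 2.81% in G1 and 2.99% and 6.37% in G1-S. Levels are CPM (counts divided by the TMM-scaled library size in M), given for preparation 5 and then for preparation 8. Changes are log2 fold changes of G1-S over G1 with a standard error (SE) from the edgeR quasi-likelihood fit, and a gene is said to rise or fall where its Benjamini-Hochberg adjusted p was under 0.05. In whole embryos a change can come from more cells of a type or from more RNA per cell, and these cannot be told apart here.

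The gates differed at a large share of genes. Of 20886 genes tested, 5150 (24.7%) were higher in G1-S and 4354 (20.8%) were lower, 45.5% in all. The rises were larger than the falls: 754 genes rose by at least 4-fold, while 89 fell by as much. Of the genes that passed the test, 9502 of 9504 changed in the same direction in both preparations. The test used these same preparations, and genes with opposite changes could hardly pass it. The count is therefore no measure of how well the changes repeat. Where libraries were scaled by their totals alone, the median of all genes moved to -0.14, and 3585 genes were higher and 6156 lower, so small changes are read against that shift. With all 25 libraries in the fit 2624 genes were higher and 1002 lower. Whether single or pooled embryos made up a preparation is unknown, so p-values measure only the spread between these libraries. Of the 754 large rises, 432 belonged to genes whose highest level among the 4 gates was in G1-S in both preparations, and 241 to genes that peaked in S-G2-M. Among all genes tested the shares were 14.8% and 16.0%. The large rises were chosen because G1-S lay above G1 in these same libraries, so G1 could hardly be their highest gate. Their shares are therefore not comparable with those of all genes tested.

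Markers of particular cell types moved with the gate as well. The summed level of hepatocyte plasma protein genes was 65.8 and 54.2 CPM in G1 and 2995 and 2257 CPM in G1-S, and that of macrophage genes was 126 and 127 CPM in G1 and 501 and 416 CPM in G1-S. The part of these cells, and of the higher mitochondrial share in G1-S, in the changes of other genes was not tested. The cell cycle lists are given first, then the cell type lists.

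**Figure D1:**
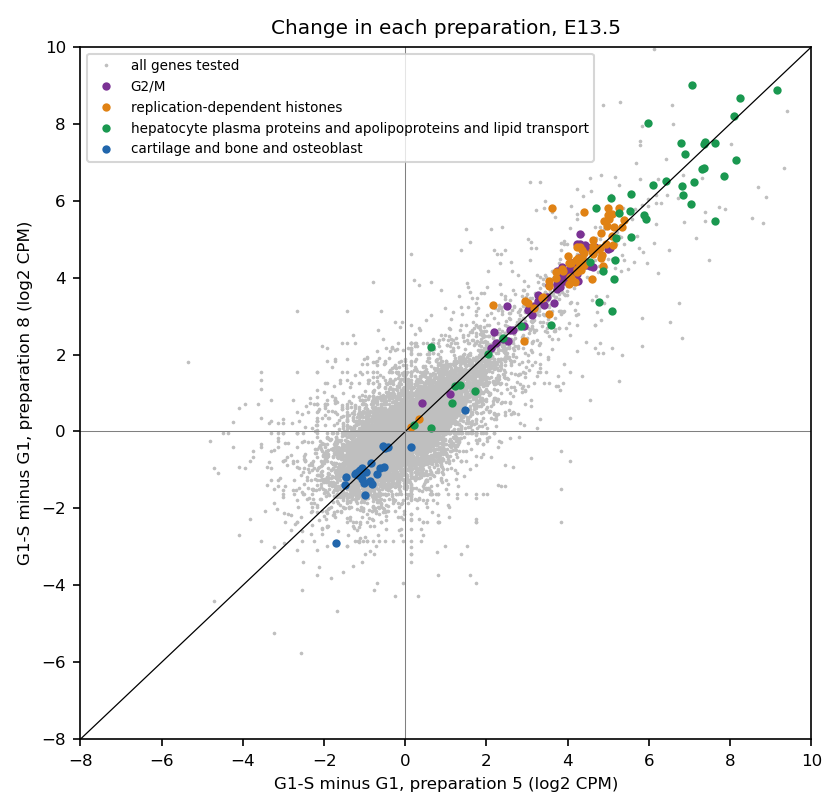
Each point is a gene tested, with its difference between G1-S and G1 (log2 CPM) in preparation 5 on the x axis and in preparation 8 on the y axis, and the line marks equal values. Hepatocyte genes (green), histone genes (orange) and G2/M genes (purple) lie at the upper right in both preparations, and cartilage and bone genes (blue) lie below 0 apart from a few.

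The genes that prepare and carry out DNA replication were higher in G1-S. Origin licensing and firing genes rose in 20 of 23 cases and none fell, with a median change of 1.0 against a median of -0.002 over all genes tested. Cdc45, the helicase subunit that joins the MCM ring at firing, stood at 15.5 and 16.1 CPM in the G1 libraries and at 75.6 and 72.9 CPM in the G1-S libraries. This was a rise of 2.23 ± 0.09 on the log2 scale (SE, adjusted p = 7.64e-15), and both G1-S values lay above both G1 values. Mcm10, which activates that helicase, rose by 2.18 ± 0.08, and Dbf4, the activator of the CDC7 kinase, by 2.16 ± 0.09. Gmnn, which encodes geminin, the inhibitor of relicensing, stood at 8.68 and 9.98 CPM in the G1 libraries and at 35.9 and 46.7 CPM in the G1-S libraries and rose by 2.14 ± 0.11. Cdt1, its target, stood at 44.1 and 49.2 CPM in the G1 libraries and at 96.6 and 100.1 CPM in the G1-S libraries and rose by 1.08 ± 0.08, so the mRNAs of both reporter partners were higher in the yellow gate. The members that did not pass the test were the origin subunits Orc3, Orc4 and Orc5, with values of 0.10, -0.18 and 0.05.

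All 31 members of the replisome and DNA synthesis list rose, with a median of 1.28 and a range of 0.48 to 2.22. Chtf18, a clamp loader subunit, stood at 16.4 and 12.8 CPM in the G1 libraries and at 64.5 and 72.2 CPM in the G1-S libraries (2.22 ± 0.11, adjusted p = 9.01e-13). Clspn, a replication checkpoint adaptor, rose by 2.16 ± 0.08 and Pcna, the sliding clamp, by 1.75 ± 0.07. Fen1, the flap nuclease of lagging strands, rose by 1.99 ± 0.09, but 84.2% of its exon length lies under genes of the other strand, and whether reads were counted by strand is not given in the sources used here. Deoxynucleotide supply rose in 11 of 12 cases. Rrm2, the regulated subunit of ribonucleotide reductase, stood at 42.4 and 40.6 CPM in the G1 libraries and at 226 and 229 CPM in the G1-S libraries, a rise of 2.45 ± 0.07 (adjusted p = 4.43e-17). Tk1, thymidine kinase, rose by 2.5 ± 0.09, Rrm1 by 1.93 ± 0.07 and Tyms, thymidylate synthase, by 1.81 ± 0.08. Cmpk2 had a value of -0.14 and did not pass the test.

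Recombination and crosslink repair genes rose in all 19 cases, with a median of 2.04 that was larger than those of licensing and synthesis. Fanci and Fancd2, the pair of proteins that is ubiquitinated at crosslinks, rose by 2.92 ± 0.11 and 2.87 ± 0.10. Fanci stood at 6.76 and 5.95 CPM in the G1 libraries and at 47.8 and 48.6 CPM in the G1-S libraries, and both G1-S values lay above both G1 values.

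Within the E2F, DP and pocket protein list 11 of 13 genes rose and none fell. The atypical repressors E2f8 and E2f7 rose most, by 2.31 ± 0.10 and 2.19 ± 0.09. E2f7 stood at 24.9 and 21.7 CPM in the G1 libraries and at 108 and 105 CPM in the G1-S libraries, and E2f8 at 15.7 and 14.3 CPM in the G1 libraries and at 79.8 and 68.6 CPM in the G1-S libraries. Among the activators, E2f2 rose by 1.70 ± 0.10, E2f1 by 0.87 ± 0.09 and E2f3 by 0.85 ± 0.08. E2f1 stood at 29.8 and 31.5 CPM in the G1 libraries and at 52.4 and 59.9 CPM in the G1-S libraries. The other family members moved less: E2f6 rose by 0.52 ± 0.08, E2f5 by 0.43 ± 0.11 and E2f4 by 0.22 ± 0.08. Rbl1, the pocket protein p107, rose by 1.12 ± 0.08, while Rbl2 (p130) and Tfdp2 had values of -0.16 and -0.09 and did not pass the test. Scaled by library totals alone, 9 rose and 2 fell. Of the MuvB core and its partners, Lin54 rose by 1.48 ± 0.10, Lin9 by 0.73 ± 0.09 and Rbbp4 by 0.48 ± 0.07, and Lin37 and Lin52 did not pass the test.

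Cyclin E genes had their highest level in this gate. Ccne2 (ENSMUSG00000028212.16, chr4:11191351-11204779, plus strand) stood at 18.3 and 16.3 CPM in the G1 libraries and at 112 and 86.0 CPM in the G1-S libraries, a rise of 2.51 ± 0.11 (adjusted p = 1.35e-13). Its S-G2-M libraries held 34.6 and 29.5 CPM, so the level in G1-S lay above both neighbouring gates. Ccne1 stood at 24.9 and 25.4 CPM in the G1 libraries and at 91.4 and 84.0 CPM in the G1-S libraries (1.80 ± 0.08) and at 50.4 and 50.7 CPM in S-G2-M. The D cyclins, which act with CDK4 and CDK6 earlier in G1, changed little: Ccnd1 rose by 0.29 ± 0.07, Ccnd3 by 0.23 ± 0.07, and Ccnd2 fell by 0.47 ± 0.07. Of the 9 G1 cyclins and kinases 7 rose and 1, Ccnd2, fell. It was 4 and 0 with all 25 libraries in the fit, 4 and 1 with library totals alone, and 3 and 0 against a minimum of 1.5-fold. Cdk2, the partner of cyclin E, rose by 0.77 ± 0.08 and Cdc25a, its activating phosphatase, by 0.56 ± 0.07. Among CDK inhibitors, Cdkn2c stood at 2.11 and 1.87 CPM in the G1 libraries and at 17.8 and 21.0 CPM in the G1-S libraries and rose by 3.29 ± 0.17, Cdkn2d rose by 1.51 ± 0.15 and Cdkn1b by 0.25 ± 0.07. Cdkn1a and Cdkn1c, which encode p21 and p57, had values of 0.22 ± 0.19 (adjusted p = 0.365) and 0.07 ± 0.06 (adjusted p = 0.404). Cdkn2a and Cdkn2b did not pass the filter on low counts.

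RefSeq promoters (250 bases before to 50 after a start, build GRCm38.p6) were searched on both strands for short words known as factor sites. The 4 E2F words TTTCCCGC, TTTGGCGC, TTTCGCGC and TTTGCCGC were found in 9 of 23 promoters of the licensing list (39.1%), in 9 of 33 of the synthesis list (27.3%) and in 2.26% of all 32851 promoters. No promoter of the deoxynucleotide list held 1, and 2 of 14 of the repair list did. The 150 bases before the start of Pola1, a subunit of DNA polymerase alpha that rose by 1.38 ± 0.08, are shown because this was the synthesis gene with the largest rise whose window held a word and touched no annotated exon (chrX:93632156-93632305, minus strand, 5′ to 3′ along the gene, the word in capitals on the other strand, 138 bases before the start):
Pola1: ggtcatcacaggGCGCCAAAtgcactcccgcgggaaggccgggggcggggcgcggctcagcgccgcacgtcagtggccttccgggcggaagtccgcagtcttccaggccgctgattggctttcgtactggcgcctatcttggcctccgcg

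Replication-dependent histone genes, whose mRNAs end in a stem-loop and are made in S phase, had the largest median rise among the cell cycle lists. Of 66 genes 62 were tested, 60 rose and none fell, with a median of 4.40, or 4.35 where the genes with no count in G1 were set to the limit that 3 counts in each G1 library give. Their summed level was 1068 and 1019 CPM in G1 and 18390 and 19910 CPM in G1-S. The S-G2-M libraries held 19240 and 25540 CPM, so the gates G1-S and S-G2-M were close in preparation 5 and further apart in 8. Hist1h3c, an H3 gene, stood at 7.70 and 8.41 CPM in the G1 libraries and at 321 and 382 CPM in the G1-S libraries (5.45 ± 0.22, adjusted p = 1.93e-06). Hist1h2ab, an H2A gene, stood at 8.43 and 5.70 CPM in the G1 libraries and at 287 and 288 CPM in the G1-S libraries (5.34 ± 0.11). Hist1h3g rose by 5.30 ± 0.14, Hist1h2ah by 5.34 ± 0.19 and Hist1h2ag by 5.36 ± 0.21. Hist1h2ao and Hist1h2br had no count in either G1 library and were at least 6.27-fold and 2.94-fold higher in G1-S, against 3 counts in each G1 library. Hist2h2be and Hist3h2a had values of 0.33 and 0.14 and did not pass the test. Copies within these clusters are nearly identical, so the split of reads among single genes is uncertain.

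The histone processing factor Slbp, which binds the stem-loop, stood at 61.7 and 63.4 CPM in the G1 libraries and at 136 and 139 CPM in the G1-S libraries and rose by 1.14 ± 0.07. The exonuclease gene Eri1 rose by 1.07 ± 0.09 and Lsm11, a subunit of the U7 particle, by 0.72 ± 0.10, and 7 of the 9 genes of this list rose in all. Of the replacement histones, which are made outside S phase as well, H2afx rose by 3.57 ± 0.12, Cenpa, the centromere histone, by 3.43 ± 0.09 and H2afz by 1.51 ± 0.10, while H3f3a and H2afy2 had values of 0.16 and -0.12. The octamer word ATTTGCAT was present in 7 of 17 promoters of H2B genes (41.2%), in 7 of 44 of the other histone genes (15.9%) and in 1.74% of all promoters. Hist1h2ab and Hist1h2ae were the genes with the largest rises whose 150 bases before the start held the word and touched no annotated exon, and the windows show the word at nearly the same distance, 129 and 128 bases before it (RefSeq symbols H2ac4 and H2ac8, chr13:23750938-23751087, plus strand, and chr13:23571221-23571370, minus strand; the word in capitals, read on the other strand):
Hist1h2ab: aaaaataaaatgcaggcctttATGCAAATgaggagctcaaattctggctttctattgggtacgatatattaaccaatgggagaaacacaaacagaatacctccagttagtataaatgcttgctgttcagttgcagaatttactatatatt
Hist1h2ae: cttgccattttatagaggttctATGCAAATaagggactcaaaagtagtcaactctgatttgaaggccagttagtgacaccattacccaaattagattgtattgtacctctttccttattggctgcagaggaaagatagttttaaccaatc

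Genes of G2 and mitosis rose in all 54 cases tested of 56 on the list, with a median of 3.95. Ccnb1, the mitotic cyclin B1 (ENSMUSG00000041431.16, chr13:100778650-100786570, minus strand), stood at 3.43 and 3.79 CPM in the G1 libraries and at 114 and 104 CPM in the G1-S libraries, a rise of 4.91 ± 0.11 (adjusted p = 4.39e-19). Hmmr, a spindle protein, rose by 4.88 ± 0.11, Nusap1, a microtubule bundling protein, by 4.73 ± 0.11 and Aurkb, the Aurora B kinase, by 4.68 ± 0.13. In G1 these genes were near their level in G0, where Ccnb1 stood at 3.30 and 2.83 CPM. In G1-S the members lay below S-G2-M, where Ccnb1 reached 286 and 240.3 CPM, and the median member stood at 49.6% and 52.4% of its S-G2-M level. For licensing genes the same median was 117% and 118%, and for synthesis genes 110.4% and 116%. The G1-S gate was thus the highest of the 4 gates in both preparations for 16 of 23 licensing genes and 19 of 31 synthesis genes, and for 1 of 54 G2/M genes.

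The largest rises outside the lists included those of Iqgap3 (4.61 ± 0.11), Aspm, a spindle pole protein mutated in microcephaly (4.56 ± 0.09), Pimreg (4.48 ± 0.14), Cep55, which acts in abscission (4.39 ± 0.12), Cdca2 (4.26 ± 0.09) and Esco2, a cohesin acetyltransferase (4.26 ± 0.14). Aspm stood at 12.9 and 14.3 CPM in the G1 libraries and at 330.5 and 314 CPM in the G1-S libraries. Within the ubiquitin ligase list that the reporters depend on, Cdc20, the mitotic activator of the anaphase-promoting complex, rose by 3.79 ± 0.09, its inhibitor Fbxo5 (EMI1) by 3.17 ± 0.09 and Cks1b by 1.40 ± 0.10. Skp2, whose ligase degrades CDT1, rose by 1.04 ± 0.07 and Fzr1 (CDH1), whose complex degrades geminin, by 0.95 ± 0.07. Btrc was the member that fell, by 0.56 ± 0.07.

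The word TTTGAA, the core of the cell cycle homology region that MuvB proteins bind, was found in 35 of 51 promoters of the G2/M list (68.6%), against 17.9% of all promoters. It was in 45.9% of histone, 60.0% of MuvB (3 of 5), 26.1% of licensing and 9.09% of synthesis promoters. CCAAT was in 76.5% of G2/M promoters and in 37.4% of all. The windows of Kif11, a spindle motor (4.64 ± 0.10), and Ckap2l, a spindle protein (4.45 ± 0.11), were the first by size of rise to hold the word and touch no annotated exon, on the other strand 19 and 30 bases before the start (chr19:37376232-37376381, plus strand, and chr2:129297213-129297362, minus strand; capitals mark the word):
Kif11: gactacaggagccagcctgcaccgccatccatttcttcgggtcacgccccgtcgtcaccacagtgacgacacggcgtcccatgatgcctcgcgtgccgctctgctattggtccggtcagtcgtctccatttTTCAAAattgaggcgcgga
Ckap2l: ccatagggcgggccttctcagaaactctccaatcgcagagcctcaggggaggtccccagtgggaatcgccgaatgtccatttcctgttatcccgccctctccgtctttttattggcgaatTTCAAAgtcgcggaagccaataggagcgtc

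**Figure D2:**
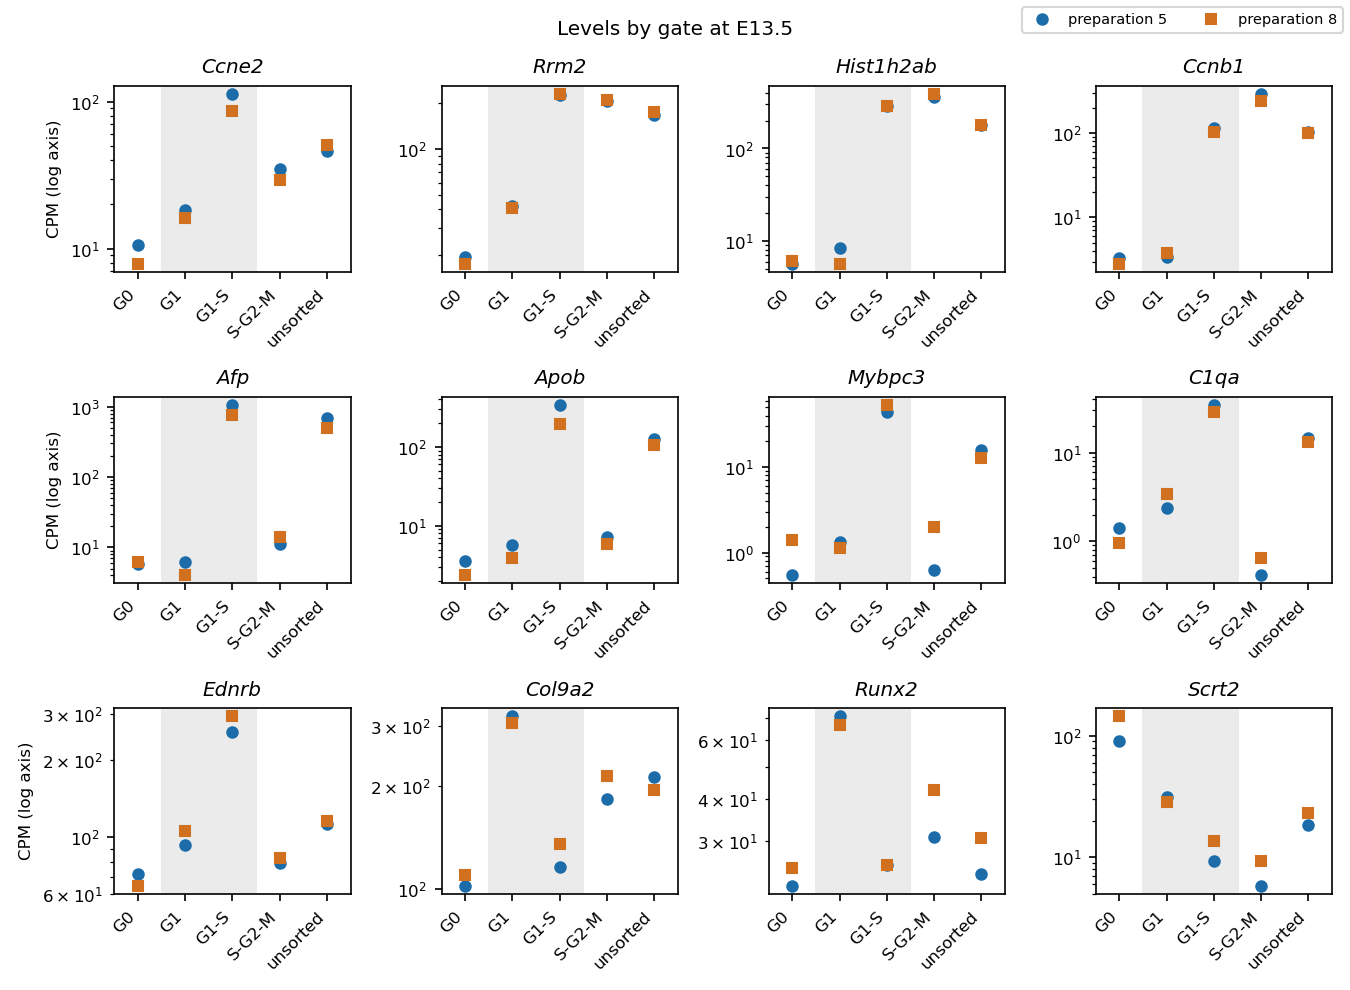
Levels (CPM, log axis) of 12 genes in the 5 fractions of E13.5, 1 point per library, with G1 and G1-S shaded. Ccne2 and the cell type genes Afp, Apob, Mybpc3, C1qa and Ednrb peak in G1-S, Hist1h2ab and Ccnb1 are high in both G1-S and S-G2-M, and Col9a2 and Runx2 peak in G1.

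Hepatocyte plasma protein genes rose by more, at the median, than the histone and G2/M genes. Of 36 plasma protein genes 33 were tested, 32 rose and none fell, with a median of 5.68 (5.64 with the genes at 0 in G1 set to their limit). Afp, the fetal serum protein made by liver and yolk sac (ENSMUSG00000054932.6, chr5:90490737-90508907, plus strand), stood at 6.22 and 4.08 CPM in the G1 libraries and at 1042 and 756 CPM in the G1-S libraries, a rise of 7.44 ± 0.22 (adjusted p = 7.91e-08). Its levels in the other fractions were 5.75 and 6.24 CPM in G0, 11.2 and 14.1 CPM in S-G2-M and 687 and 499.6 CPM in unsorted cells, so the 2 G1-S libraries stood far above every other gate and above unsorted cells. Alb, albumin, stood at 4.61 and 3.10 CPM in the G1 libraries and at 756 and 560.4 CPM in the G1-S libraries (7.41 ± 0.17, adjusted p = 6.61e-12). The fibrinogen chains Fga and Fgb rose by 8.25 ± 0.19 and 7.74 ± 0.23, and Itih2, a hyaluronan carrier, by 6.63 ± 0.20. Serpina6, which encodes the plasma carrier of corticosteroids, rose by 6.23 ± 0.14 and C3, the central complement protein, by 5.84 ± 0.16. Itih1 and Serpina1d had no count in either G1 library and were at least 78.1-fold and 11.8-fold higher in G1-S. The single member short of the test was Cp, ceruloplasmin (0.36), and Fetub, Hrg and Serpina1e did not pass the filter.

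The summed level of this list was 65.8 and 54.2 CPM in G1, 2995 and 2257 CPM in G1-S, 57.2 and 65.2 CPM in S-G2-M, 111 and 93.4 CPM in G0 and 1829 and 1374 CPM in unsorted cells. Of its 33 tested members, 32 had their highest gate level in G1-S in both preparations. The exception was Ttr, transthyretin, which also rose (1.21 ± 0.15) but was highest in G0.

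Other liver lists moved the same way. Apolipoprotein and lipid transport genes rose in 13 of 14 cases, with a median of 6.10 (4.23 with genes at 0 set to their limit). Apoa1, the main protein of high-density lipoprotein, stood at 0.588 and 1.18 CPM in the G1 libraries and at 81.1 and 72.8 CPM in the G1-S libraries (6.43 ± 0.20). Apob, the protein of very-low-density lipoprotein, stood at 5.64 and 3.93 CPM in the G1 libraries and at 335 and 197 CPM in the G1-S libraries (5.78 ± 0.13). Apoa2, at a few counts in G1, stood at 0.098 and 0.0492 CPM in the G1 libraries and at 37.2 and 30.3 CPM in the G1-S libraries. Fabp1, a fatty acid carrier, had no count in G1 and was at least 19.0-fold higher. Hepatocyte enzymes rose in 20 of 24 cases, among them Cps1, the first enzyme of the urea cycle (4.38 ± 0.31), and Slc27a2, which activates fatty acids (3.39 ± 0.20). With all 25 libraries in the fit 13 of these enzymes rose. Transcription factors and receptors rose in 12 of 16 cases by a smaller median of 1.35. Hnf4a, the main regulator of hepatocyte identity, stood at 1.27 and 0.934 CPM in the G1 libraries and at 26.0 and 19.3 CPM in the G1-S libraries (4.35 ± 0.19, adjusted p = 3.82e-14), and Tfr2, a transferrin receptor, rose by 2.88 ± 0.31. Asgr2, an asialoglycoprotein receptor chain, had no count in G1 and was at least 12.2-fold higher.

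Several other cell types had marker genes that were higher in G1-S. Macrophage genes rose in 19 of 21 cases and 1 fell (median 2.31), and 19 of the 21 had their highest gate level in G1-S in both preparations. C1qa, a complement chain made by macrophages, stood at 2.35 and 3.44 CPM in the G1 libraries and at 34.0 and 29.0 CPM in the G1-S libraries (3.44 ± 0.18, adjusted p = 7.91e-13), and at 0.42 and 0.644 CPM in S-G2-M. Marco, a scavenger receptor, stood at 0 and 0.0983 CPM in the G1 libraries and at 15.6 and 14.1 CPM in the G1-S libraries, where 2 counts in all lay behind the G1 values. Cd5l, a secreted macrophage protein, stood at 0.049 and 0.246 CPM in the G1 libraries and at 12.2 and 12.1 CPM in the G1-S libraries (6.31 ± 0.36). Timd4, a phosphatidylserine receptor of tissue macrophages, rose by 4.64 ± 0.43. Of the lysosome list, whose genes many cells express, 15 of 24 rose and 2 fell, with a median of 0.28. The largest rise was that of Ctss, a protease of antigen-presenting cells (2.31 ± 0.22). In that list 9 rose and 4 fell with library totals alone, 7 rose with all 25 libraries and 4 against a minimum of 1.5-fold.

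Cardiac muscle genes rose in 17 of 19 cases (median 2.98), with summed levels of 199 and 198 CPM in G1 and 803 and 902 CPM in G1-S. Myh7, a cardiac myosin heavy chain, stood at 3.48 and 8.85 CPM in the G1 libraries and at 244 and 264 CPM in the G1-S libraries (5.39 ± 0.45, adjusted p = 0.000927), and Mybpc3, cardiac myosin-binding protein C, at 1.32 and 1.13 CPM in the G1 libraries and at 43.7 and 52.7 CPM in the G1-S libraries (5.29 ± 0.30). Myl3, a myosin light chain, rose by 5.07 ± 0.53. Pln, phospholamban, rose by 5.09 ± 0.26, with 64.7% of its exon length under genes of the other strand. Tbx5, a T-box factor of heart and forelimb, fell by 1.08 ± 0.12. Skeletal muscle genes were split: 10 of 21 rose and 6 fell, or 6 and 2 with all 25 libraries in the fit. The myoblast factor Myf5 rose by 2.27 ± 0.23 and the sarcomere genes Actn2 and Tnni1 by 2.76 ± 0.16 and 2.13 ± 0.23, while the fusion proteins Mymk and Mymx fell by 0.91 ± 0.26 and 0.97 ± 0.24 and the embryonic myosin Myh3 by 1.45 ± 0.11. Myh3 stood at 30.4 and 26.4 CPM in the G1 libraries and at 11.3 and 9.49 CPM in the G1-S libraries.

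Endothelial genes rose in 17 of 18 cases (median 1.42), including Cldn5, a tight junction protein (2.25 ± 0.15), and Pecam1 (1.83 ± 0.12). Pecam1 stood at 19.1 and 16.0 CPM in the G1 libraries and at 79.3 and 47.7 CPM in the G1-S libraries, with the higher G1-S value in preparation 5. Erg, an endothelial and cartilage transcription factor, fell by 0.95 ± 0.10. Platelet genes rose within the list of blood progenitors and megakaryocytes, where 12 of 23 genes rose and 4 fell (12 and 1 with all 25 libraries). Ppbp rose by 4.79 ± 0.31 and Pf4, platelet factor 4, by 3.56 ± 0.28. The stem cell factors Mecom, Gata2 and Runx1 fell by 0.88 ± 0.07, 0.78 ± 0.14 and 0.53 ± 0.09, and Cpa3 fell too. These falls in 4 of 23 genes were near the 20.8% that fell over all genes tested. Neural crest and glial genes rose in 10 of 14 cases, and 1, S100b, fell. Ednrb, the endothelin receptor of crest cells, stood at 92.9 and 105 CPM in the G1 libraries and at 256 and 294 CPM in the G1-S libraries (1.47 ± 0.08), Erbb3, a neuregulin receptor, rose by 1.32 ± 0.07 and Foxd3 by 1.80 ± 0.18. Simple epithelial keratins rose, Krt8 by 1.91 ± 0.13 and Krt18 by 1.77 ± 0.13, while the epidermal keratins Krt5 and Krt14 had values of 0.17 and 0.19 and did not pass the test.

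Few red cell genes passed the test, although hepatocyte genes of the fetal liver, a site of red cell formation, did. Of 9 globin genes tested none rose and Hbq1b fell, from 0.245 and 0.786 to 0.108 and 0.0964 CPM, and of 27 erythroid genes 2 rose and 3 fell. The number of globin genes that fell was 4 without the G1-S library of preparation 5, 3 without its G1 library and 3 with DESeq2, and it was 0 with all 25 libraries, with the 4 compared libraries alone and without the G1 library of preparation 8. Summed globin levels were 2182 and 3159 CPM in G1 and 1927 and 1070 CPM in G1-S, against 35490 and 38030 CPM in unsorted cells, so both gates held a small part of the level of the unsorted embryo. Summed erythroid levels were 487 and 568 CPM in G1, 546 and 415 CPM in G1-S and 6856 and 6857 CPM in unsorted cells. The direction differed between preparations, with an erythroid list median of 0.29 in 5 and -0.52 in 8. Tal1, a blood transcription factor, fell by 0.62 ± 0.14, and Gata1 rose by 0.80 ± 0.26 from 1.23 and 1.38 to 2.39 and 2.17 CPM. Without the G1-S library of preparation 5, 1 erythroid gene rose and 8 fell, and without that of preparation 8, 4 rose and 1 fell. Among erythroid genes 1 rose and 0 fell with all 25 libraries in the fit.

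**Figure D3:**
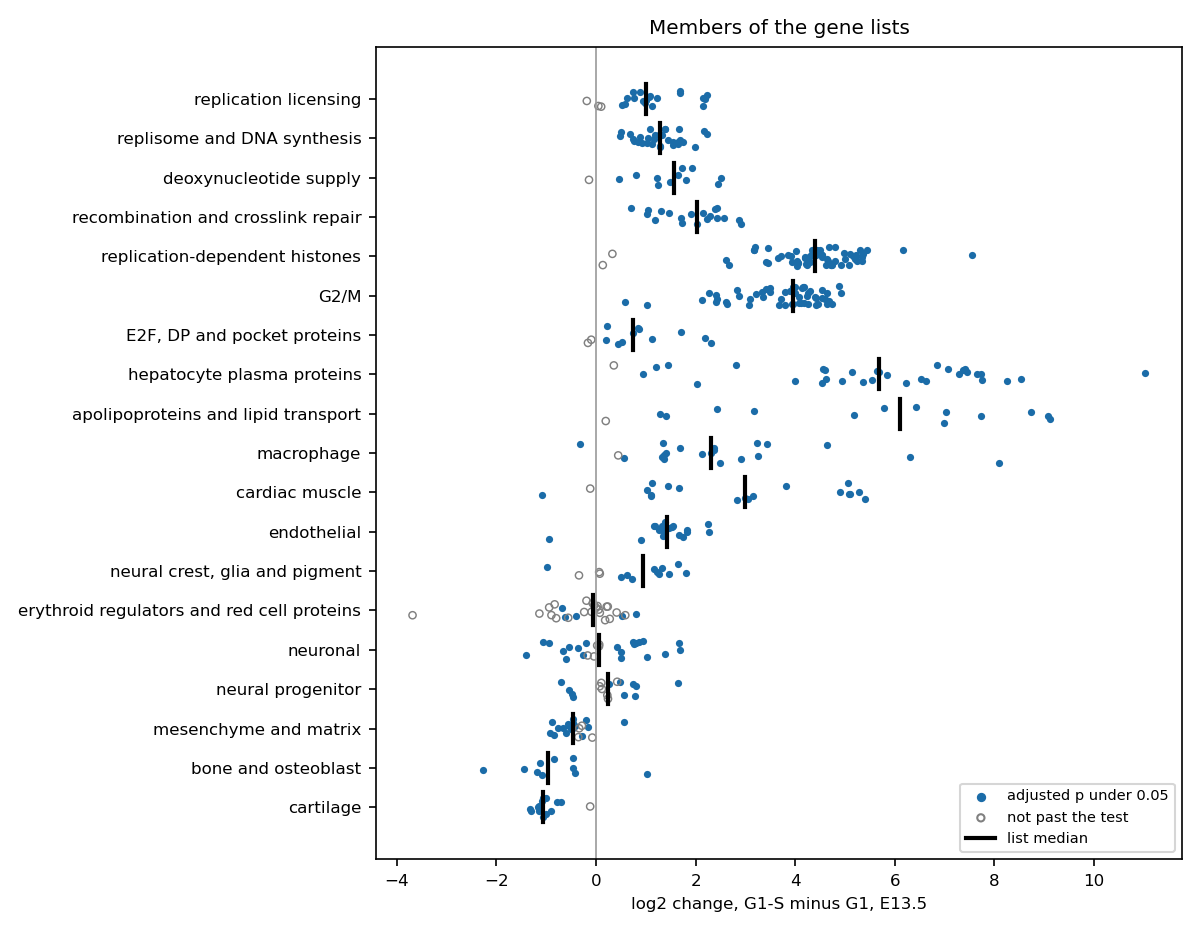
Log2 change from G1 to G1-S at E13.5 of each tested member of 19 gene lists, filled where it passed the test, with the list median as a bar. Fitted values of genes with no count in G1, such as Itih1 at the far right, depend on the prior count. Replication, histone, G2/M and hepatocyte lists lie to the right of 0 and cartilage and bone lists to the left.

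Skeletal and connective tissue genes were lower in G1-S. Of 15 cartilage genes 14 fell and none rose, with a median of -1.07 and summed levels of 7820 and 7114 CPM in G1 and 3724 and 3452 CPM in G1-S. Col9a2, a chain of type IX collagen (ENSMUSG00000028626.5, chr4:121039385-121055322, plus strand), stood at 319 and 304 CPM in the G1 libraries and at 116 and 135 CPM in the G1-S libraries, a fall of 1.32 ± 0.08 (adjusted p = 2.79e-11). Sox9, the main regulator of chondrocytes, stood at 166 and 148 CPM in the G1 libraries and at 70.7 and 68.9 CPM in the G1-S libraries and fell by 1.17 ± 0.07. Col11a1 fell by 1.15 ± 0.06 and Cnmd, chondromodulin, by 1.31 ± 0.11, and Matn3 had a value of -0.12 and did not pass the test. G1 was the highest of the 4 gates in both preparations for 14 of these 15 genes.

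Bone genes fell in 9 of 10 cases, and in 5 with all 25 libraries in the fit. Runx2, the regulator of osteoblasts, stood at 70.7 and 66.5 CPM in the G1 libraries and at 25.4 and 25.4 CPM in the G1-S libraries and fell by 1.44 ± 0.11 (adjusted p = 2.4e-09), and Dlx5 and Dlx6 fell by 1.11 ± 0.19 and 1.19 ± 0.21. Ibsp, bone sialoprotein, fell by 2.28 ± 0.37 from a low level of 2.35 and 2.65 CPM. Spp1, which macrophages also express, rose by 1.03 ± 0.31, a call lost without the G1 or the G1-S library of preparation 5, with DESeq2, with all 25 libraries in the fit and against a minimum of 1.5-fold. Mesenchyme and matrix genes fell in 16 of 21 cases by a smaller median of -0.46. Prrx1, a factor of limb mesenchyme, stood at 319.6 and 324 CPM in the G1 libraries and at 169.8 and 170.1 CPM in the G1-S libraries and fell by 0.92 ± 0.09, Pdgfra by 0.76 ± 0.07 and Mfap4 by 0.88 ± 0.08. Vim, vimentin, rose by 0.57 ± 0.07. With all 25 libraries in the fit 6 of these genes fell, and 4 passed a test against a minimum of 1.5-fold.

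Of the 859 genes that fell by at least 2-fold, 834 were in none of the lists. Of the 859, 395 had their highest gate level in G1 in both preparations and 244 in G0. They were chosen because G1-S lay below G1 in these same libraries, so G1-S could hardly be their highest gate. The genes below had some of the largest falls outside the lists at the level set for naming. Wwp2, a ubiquitin ligase expressed in cartilage, stood at 551 and 524 CPM in the G1 libraries and at 204 and 186 CPM in the G1-S libraries and fell by 1.47 ± 0.07 (adjusted p = 7.18e-14). Itga11, a collagen receptor, fell by 1.47 ± 0.11, Rflna by 1.43 ± 0.11, Ptprv by 1.41 ± 0.14 and Sned1 by 1.55 ± 0.11. Sned1 stood at 228 and 200.3 CPM in the G1 libraries and at 77.5 and 69.3 CPM in the G1-S libraries. The largest fall of a gene above the level set for naming was that of Tal2, a basic helix-loop-helix factor, at 22.6 and 19.0 CPM in the G1 libraries and at 5.64 and 4.10 CPM in the G1-S libraries (2.10 ± 0.14). Miat, a noncoding RNA of neurons, fell by 1.63 ± 0.19 from 703 and 641 to 185 and 256 CPM, Tle2, a corepressor, by 1.56 ± 0.12 and Trpm5, an ion channel, by 1.39 ± 0.10.

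Neuronal genes moved in both directions: 12 of 26 rose and 9 fell, with a median of 0.06 that turned to -0.07 when libraries were scaled by their totals alone. Those that rose included neurofilament and microtubule genes. Ina, a neurofilament protein, stood at 14.3 and 14.3 CPM in the G1 libraries and at 37.4 and 53.8 CPM in the G1-S libraries (1.66 ± 0.17), and Mapt, tau, and Nefm rose by 1.38 ± 0.17 and 1.02 ± 0.11. All 4 values of Ina were far below its G0 level of 533 and 605 CPM. The genes that fell included early neuronal factors and RNA-binding proteins: Scrt2 fell by 1.41 ± 0.18, Nhlh1 by 1.07 ± 0.12, Rbfox3 by 0.95 ± 0.19 and Elavl3 by 0.67 ± 0.12. Scrt2 stood at 31.4 and 28.3 CPM in the G1 libraries and at 9.38 and 13.5 CPM in the G1-S libraries. With all 25 libraries 7 neuronal genes rose and 3 fell. Leaving out either library of preparation 8 reduced the genes that rose from 12 to 6, while 9 fell. Of 17 neural progenitor genes 7 rose and 4 fell, where 24.7% and 20.8% of all genes tested did, so the falls were near that share. With all 25 libraries in the fit 5 rose and 1 fell. Against a minimum of 1.5-fold 1 rose and none fell. Fabp7 and Nes, of radial glia, rose by 1.65 ± 0.16 and 0.79 ± 0.10 and Sox2 by 0.74 ± 0.09, while the proneural gene Neurog2 and the Notch ligand Dll1 fell by 0.55 ± 0.11 and 0.69 ± 0.09. Of 17 Notch and proneural genes 7 rose and 6 fell, or 3 and 2 with all 25 libraries in the fit. The Notch ligands went both ways: Dll3 fell by 1.18 ± 0.11, while Dll4 rose. The Notch targets Heyl and Hey1 rose by 1.25 ± 0.11 and 1.07 ± 0.10.

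Ribosomal protein genes rose in 44 of 79 cases and 1 fell, by a median of 0.26. Scaled by library totals alone 21 rose and 3 fell, with all 25 libraries in the fit 2 rose, and without the G1-S library of preparation 8 29 rose. Cholesterol synthesis genes rose in 15 of 19 cases (median 0.44), with Idi1 at 0.79 ± 0.16. Glycolysis genes rose in 15 of 18, with Ldha at 0.68 ± 0.07, and 2 fell, Eno2 and Pfkm. Glycolysis genes rose in 9 cases with library totals alone and in 7 with all 25 libraries. Heat shock genes rose in 9 of 13 cases, Hsp90aa1 by 0.88 ± 0.06, and in 5 with all 25 libraries. Against a minimum of 1.5-fold 0 cholesterol, 1 glycolysis, 3 heat shock and 0 ribosomal protein genes rose. Of the mitochondrially encoded genes 3 of 10 rose and none fell, near the 24.7% that rose over all genes tested. The list median was 1.04 in preparation 5 and 0.30 in 8. Without the G1-S library of preparation 8, 7 of them rose with a median of 1.24, and without that of preparation 5 the median was 0.11. Dissociation response genes, which handling of tissue induces, rose in 7 of 23 cases and fell in 7, close to the shares of 24.7% and 20.8% over all genes tested. Atf3 rose by 1.08 ± 0.12, and Fosb and Egr1 fell by 0.74 ± 0.07 and 0.68 ± 0.07. Without the preparation term 6 rose and 2 fell, scaled by library totals alone 3 rose and 12 fell, and with all 25 libraries 3 rose and 2 fell. In the Myc network Mxd3, a MAX partner known from S phase, rose by 4.40 ± 0.19, while Mxd4 fell by 1.07 ± 0.07. Of the chromatin list, Uhrf1 and Dnmt1, which maintain DNA methylation at replication, rose by 1.66 ± 0.07 and 1.05 ± 0.07, whereas Tet2 and Ezh1 fell by 0.73 ± 0.08 and 0.89 ± 0.11. Of 18 p53 targets 5 rose and 5 fell, also close to those shares, and 2 rose and 1 fell with all 25 libraries. Gtse1, a G2 and S phase gene, rose most (4.08 ± 0.12) and Trp53inp1 fell most (0.83 ± 0.08).

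The change between these gates was set against the same change at E10.5 and E11.5, in a fit of all 25 libraries with the preparation as a term. The difference was tested as an interaction. Of 23506 genes, 860 (3.66%) had a more positive change at E13.5 and 276 (1.17%) a more negative one. Shares over all genes are not given for the earlier days alone, so list counts of rises and falls on those days stand without them. The days came from different preparations, and the G1 and G1-S libraries of the earlier days had 0.442% to 0.563% of counts in mitochondrially encoded genes, so day and preparation cannot be told apart. Without preparation 5, 182 and 11 genes passed, and without preparation 8, 106 and 10. Without WT3, the preparation of E11.5, it was 1479 and 1219.

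Changes of replication genes were also seen on these days. The licensing median was 0.96 at the earlier days and 1 of 23 genes, Dbf4, passed the day test. For synthesis genes the median was 1.15 and no gene passed it. The median day difference was 0.17 for licensing and 0.14 for synthesis genes. For deoxynucleotide supply genes it was 0.39 (median 1.22 on the earlier days, 1 gene more positive at E13.5), and for repair genes 0.42 (median 1.67, 2 genes more positive). G2/M genes rose on the earlier days too (median 2.32, 53 rose and Cdc25b fell), but the change was more positive at E13.5 for 45 of 54. Ccnb1 changed by 2.81 ± 0.17 on the earlier days, a difference of 2.15 ± 0.28 (adjusted p = 0.000114). Histone genes had a median of 3.35 and 15 were more positive at E13.5, among them Hist1h3c (1.81 ± 0.42, adjusted p = 0.0132).

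Hepatocyte plasma protein genes had a median of 1.0 on the earlier days, where 10 rose, and 26 of 31 had a more positive change at E13.5. Afp changed by 1.74 ± 0.39 on the earlier days (adjusted p = 0.00382) and the difference was 5.76 ± 0.66 (adjusted p = 3.23e-05). Cardiac genes had a median of 2.37 with 15 rises, and Pln alone passed the day test (4.91 ± 0.62). Macrophage genes had a median of 1.08 and 5 were more positive at E13.5.

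On the earlier days the median of cartilage genes was near 0, that of mesenchyme genes was slightly above 0 and that of neuronal genes was below it. Cartilage genes had a median of 0.09 on the earlier days, where 4 rose and 1 fell, and 9 of 15 had a more negative change at E13.5. Acan, aggrecan, rose by 1.43 ± 0.21 on the earlier days (adjusted p = 7.16e-05) and fell by 1.07 ± 0.08 at E13.5, so its direction turned (-2.46 ± 0.28, adjusted p = 2.88e-05). Mesenchyme genes had a median of 0.34 and 7 were more negative. Neuronal genes fell in 21 of 26 cases on the earlier days with a median of -1.52, and 19 had a more positive change at E13.5. Ina fell by 2.23 ± 0.25 on the earlier days and rose at E13.5, a difference of 3.93 ± 0.40 (adjusted p = 8.27e-06).

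**Figure D4:**
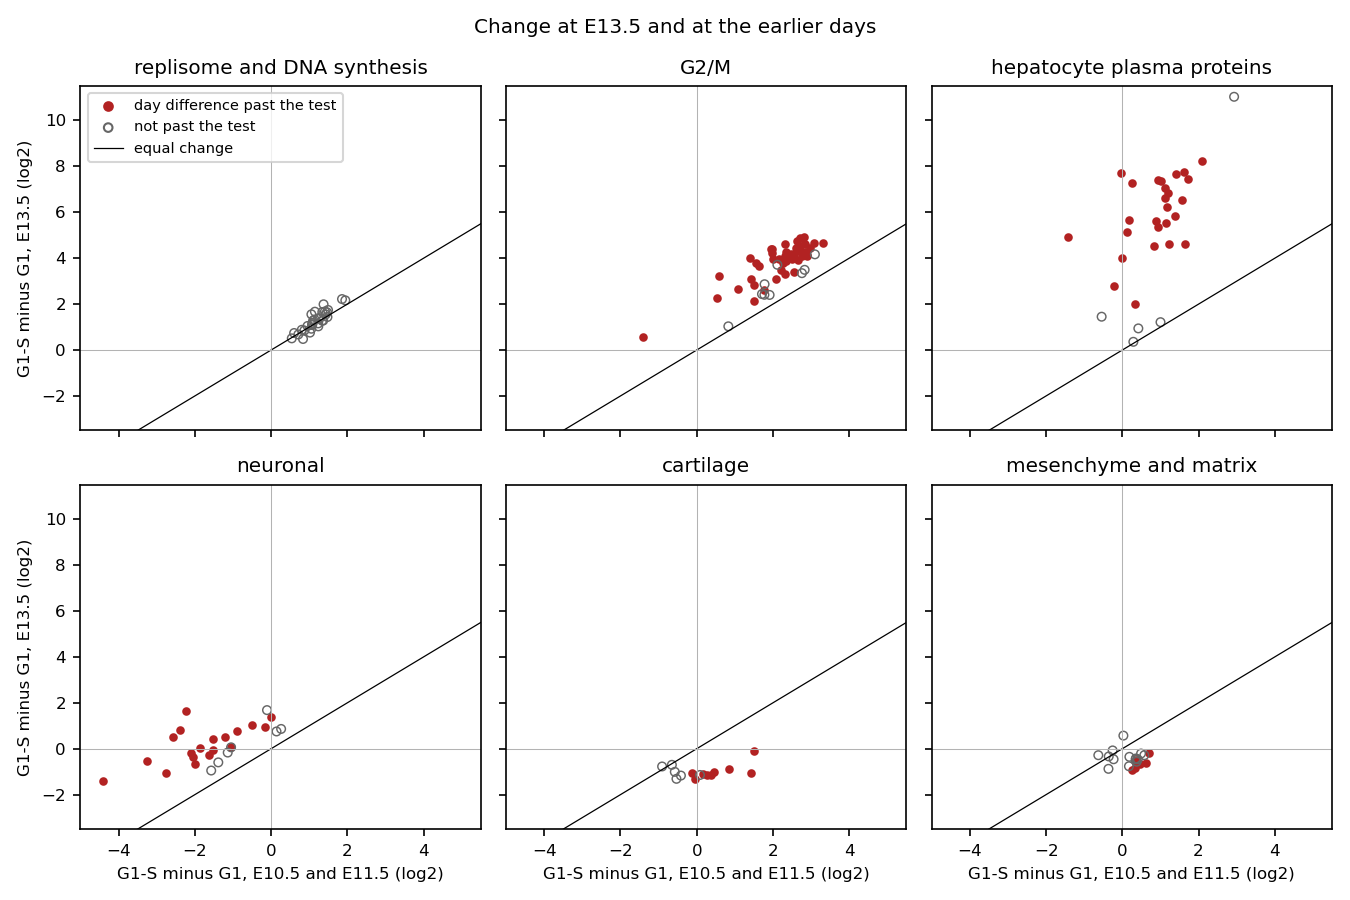
Log2 change from G1 to G1-S at E10.5 and E11.5 (x axis) and at E13.5 (y axis) for the members of 6 gene lists, filled where the day difference passed the test, with a line of equal change. Synthesis genes lie along the line, G2/M, hepatocyte and neuronal genes lie above it, and most cartilage and mesenchyme genes lie on or below it.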

How the data were processed

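RNA-seq of rRNA-depleted total RNA was deposited by the authors as a table of raw read counts per gene for 52550 gene IDs. The submitters' processing notes name STAR 2.5.3, HTSeq 0.8.0 and mm10. For the annotation, the strand setting of counting and reads that match several genes, those notes and the labels name nothing. The 130 columns are lanes or parts of 25 libraries and were summed per library, so that the 4 compared libraries came from 8 columns.

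Counts of the 10 libraries of E13.5 were fitted with edgeR 4.0.16 (robust quasi-likelihood test, TMM factors, filterByExpr with a minimum count of 10 and a total of 15, preparation and fraction as terms, 4 residual degrees of freedom). P-values were adjusted by Benjamini-Hochberg over all genes tested, with a threshold of 0.05. The day difference was an interaction over all 25 libraries (12 residual degrees of freedom). A gene with no count in G1 was set against 3 counts in each G1 library, a limit that covers counting error only. DESeq2 1.42.0, other scaling, other filters and left-out libraries were the alternatives.

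The comparison, the 44 gene lists and the tests were chosen with earlier results of these data known. Genes were named as the 12 highest and 12 lowest changes at a mean of at least 3 log2 CPM that passed the test in both preparations' direction, the 8 highest and 8 lowest outside the lists, up to 4 members of each list in each direction, and the 8 most positive and 8 most negative day differences. Further list members were named for their known role after their values were seen. Gene positions and exon overlaps are those of GENCODE M21 on GRCm38, with 52403 of the IDs matched, and promoters are from RefSeq on GRCm38.p6. Some genes are not reported here.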

Additional observations from a re-analysis of the deposited data

Results flagged for a closer look

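The change from G1 to G1-S differed between E13.5 and the earlier days for the genes below, by the interaction test of edgeR with adjusted p-values over 23506 genes. They are the 8 most positive and 8 most negative differences (log2) by the rule for named genes, and 2 preparations of E13.5 stand against 3 of the earlier days. Day and preparation cannot be told apart, and without preparation 8 the calls fell from 860 and 276 to 106 and 10.

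The more positive changes were those of Afp (5.76), Apob (4.90), the neurofilament gene Ina (3.93), the metallothionein Mt1 (3.45), the homeobox gene Lhx1 (3.38), the axon guidance receptor Robo3 (3.23), the axonal adhesion protein Cntn2 (3.12) and Scrt2 (3.04). Afp and Apob rose on the earlier days too, by 1.74 and 0.93. Scrt2 fell on both, with values of -4.41 on the earlier days and -1.41 at E13.5.

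The more negative changes were those of the small matrix proteoglycan Ogn (-3.06), Acan (-2.46), the transporter Slc16a4 (-2.31), Nfatc1 (-2.22), Lars2 (-2.19), Susd5 (-1.92), the cartilage matrix gene Matn4 (-1.88) and Erg (-1.75).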

How the results depend on the processing

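With all 25 libraries in the fit 2624 genes were higher and 1002 lower, and against a minimum change of 1.5-fold 1675 and 665. Under the same 2 settings, 6 and 4 mesenchyme genes fell, 7 and 4 neuronal genes rose, and 3 and 2 neuronal genes fell. Library totals alone gave 3585 higher and 6156 lower, and DESeq2 called 7606 genes. Leaving out 1 of the 4 libraries left 7193 to 8388 calls, with the lone library of a gate assumed to vary like the others, and 6 to 10 neuronal genes rose. The fit without the replicate block called 8476 genes (4704 higher, 3772 lower). Deviations of same-numbered G1 and G1-S libraries correlated at 0.149 across genes, or 0.110 without Xist and Y-linked genes, and 2 preparations do not show that the numbers pair the samples. For the day difference the fit without the block gave 527 more positive and 128 more negative genes, and E10.5 alone as the earlier stage gave 1479 and 1219. Leaving out 1 preparation gave 106 to 1479 and 10 to 1219. The causes of these shifts were not tested. Of 4245 values of 266 named genes under the alternatives, 4000 kept their direction and side of the threshold, 244 lost the call, 1 gained it and none reversed. Counts per gene limit the low genes: 3 counts are 0.147 CPM in a G1 library.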
